A study of Homo sapiens with 6 samples.

Results

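The TGF-beta and BMP signalling pathway was examined gene by gene in HCT116 cells in which ADNP had been knocked down. The 47 genes described here are the rows of the deposited count table that carry the symbols of a fixed list of ligands, latent binding proteins, receptors, SMADs, regulators and response genes, out of 23368 symbols in the table. Every symbol on it had a row. The siADNP group consisted of 3 libraries from cells transfected with an siRNA that targets ADNP, a homeodomain protein with zinc fingers that binds chromatin. The siControl group consisted of 3 libraries from cells of the same line given a control siRNA. All 6 libraries were made from 150 ng of total RNA each, and the design text describes the libraries of a group as biological replicates without naming separate cultures or transfections, so the p-values measure the spread between these libraries, part of which may be technical. The siRNA sequences, dose and time after transfection remain unstated in the labels, and 1 cell line was studied.

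Ligands of the TGF-beta family are secreted as dimers and are sensed by pairs of serine/threonine kinase receptors. A type II receptor binds the ligand and phosphorylates a type I receptor, which in turn phosphorylates receptor-regulated SMAD proteins. SMAD2 and SMAD3 carry the TGF-beta and activin signal, SMAD1, SMAD5 and SMAD9 carry the BMP signal, and both branches share SMAD4 as the partner that enters the nucleus with them. TGF-beta itself is stored in a latent form bound to LTBP proteins, while inhibitory SMADs, the corepressors SKI, SKIL, TGIF1 and TGIF2 and the ubiquitin ligases SMURF1 and SMURF2 dampen the response. In colon epithelium the TGF-beta branch is known as a brake on growth, and HCT116, a microsatellite-unstable colon cancer line, is known to carry inactivating frameshift mutations in TGFBR2.

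Reads assigned to genes numbered 7396771 to 8726017 in the siADNP libraries and 8282290 to 10265175 in the siControl libraries. Levels are given as CPM, each gene's read count scaled by the TMM-adjusted total of its library, and they are not corrected for gene length, so CPM of different genes are not set against each other. ADNP was measured at 46.7, 55.3 and 59.8 CPM with siADNP and at 171, 155 and 167 CPM with siControl, so the target's level fitted the label in every library. Of the epithelial markers EPCAM, KRT8, KRT18, CDH1 and CDX2 were detected in all libraries, with EPCAM at 316 to 338 CPM with siADNP and 326 to 344 CPM with siControl, whereas VIL1 had 0 reads. Of the fibroblast markers DCN and LUM had 0 reads, COL1A2 and COL3A1 had at most 3 reads in either group, and COL1A1 was present at 8.24 ± 1.70 CPM with siADNP and 7.55 ± 0.335 CPM with siControl (SD, n = 3 each; log2 fold change 0.14, edgeR adjusted p = 0.552). PTPRC, the pan-leukocyte marker, had 7 reads in all with siADNP and 6 with siControl. CD14 and CD3E had 0 and 1 reads in all with siADNP, against 2 and 0 with siControl. CD68 was the only listed blood or fibroblast marker that passed the test (log2 fold change 0.42, edgeR adjusted p = 0.0366). Its means were 9.44 ± 0.298 CPM with siADNP and 7.04 ± 0.443 CPM with siControl (SD, n = 3 each). With the offset for transcript GC content described below, CD68 did not pass (0.33, edgeR adjusted p = 0.105).

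Of the 47 genes, 37 had enough reads to test, and 13 of these differed between the groups at an adjusted p under 0.05 in edgeR's quasi-likelihood test. TGFB1, BMP7, GDF11, LTBP4, TGFBR1, ACVR2A, TGFBR3, SMAD2, TGIF1 and SMURF2 were higher with siADNP, and TGFBR2, TGIF2 and ID1 were lower. The 10 higher genes make up 27.0% of the tested pathway genes, where 14.6% of all 12489 tested genes were higher. The 3 lower genes make up 8.11%, where 13.7% of all tested genes were lower. The 47 genes were chosen with earlier results of these data known, so these shares only describe them. Calls in either direction came to 35.1% of the pathway genes and to 28.3% of all tested genes. At mean levels of 10 CPM or more the corresponding shares were 39.3% (11 of 28 pathway genes) and 32.2%. The CPM of the groups did not overlap for 16 of the 37 genes (43.2%), against 40.8% of all tested genes. Of these, 11 were higher with siADNP (background 20.1%) and 5 lower (background 20.7%). The median log2 fold change was 0.09 over the 37 pathway genes and -0.00128 over all tested genes. An offset that removes the dependence of each library on transcript GC content was also used. With it, 10 of the 37 pathway genes were again higher (27.0%, background 12.4%). The lower genes were 6 of the 37, against 3 without the offset, and the background share of lower genes was 14.6%. The offset takes out technical bias and any knockdown effect that follows GC content alike, and these cannot be told apart here. In bulk RNA a smaller amount of transcript in each cell and fewer cells that carry the transcript cannot be told apart.

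**Figure D1:**
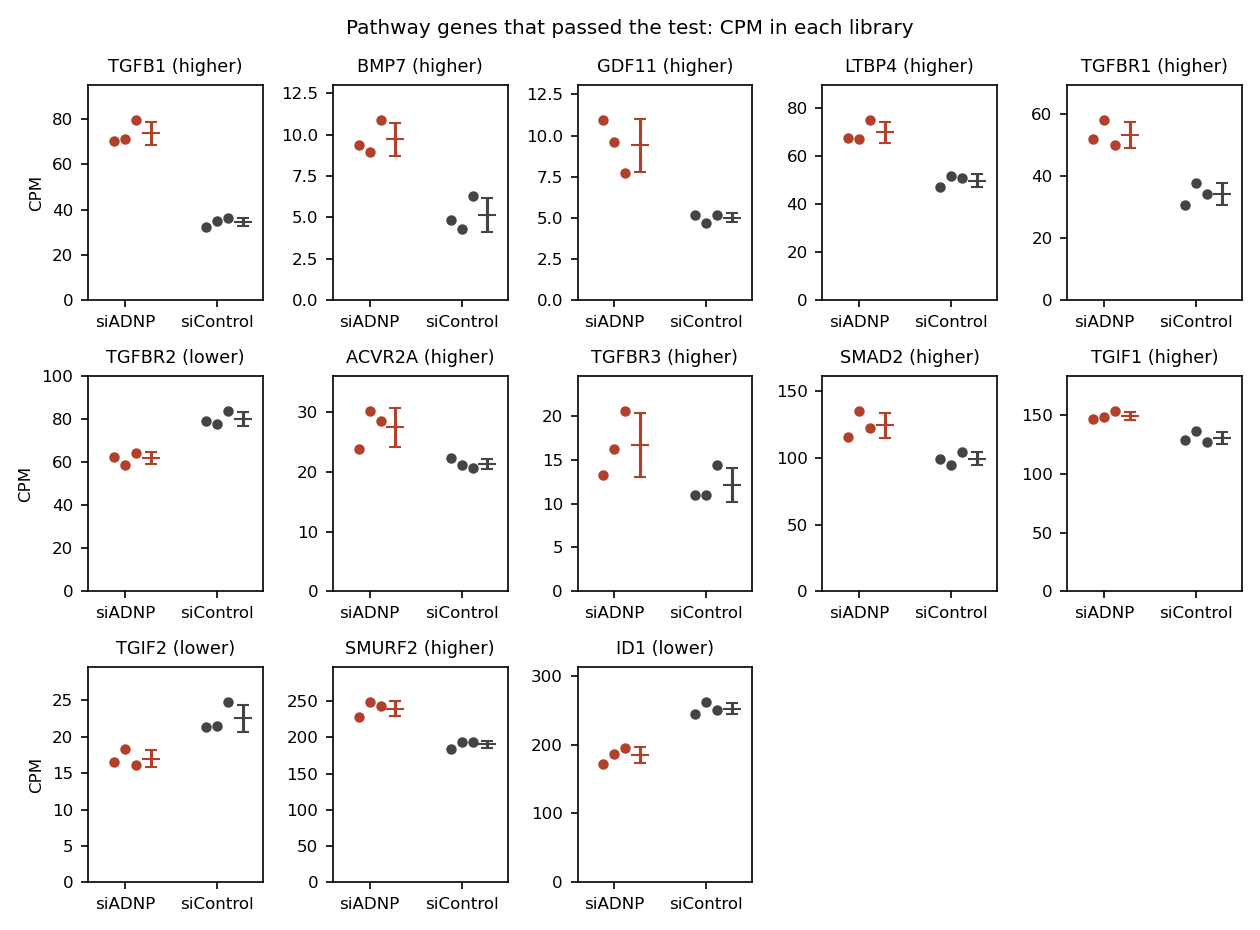
CPM (vertical axes, starting at 0) of the 13 pathway genes that passed the test, in each of the 3 siADNP libraries (red, left) and the 3 siControl libraries (grey, right); points are libraries, the horizontal tick is the group mean and the bar is ± 1 SD. TGFB1 lies between 70.4 and 79.3 CPM with siADNP and between 32.5 and 36.2 CPM with siControl, and TGFBR3 is the gene whose groups overlap.

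The TGF-beta ligands differed from each other. TGFB1, the most widely expressed isoform of the cytokine, had 70.4, 71.2 and 79.3 CPM with siADNP and 32.5, 35.2 and 36.2 CPM with siControl. Every siADNP library lay well above every siControl library. The means were 73.6 ± 4.93 CPM with siADNP and 34.6 ± 1.90 CPM with siControl (SD, n = 3 each), and the log2 fold change of 1.09 ± 0.07 (SE; edgeR, adjusted p = 1.84e-14) was the largest of the pathway genes tested. TGFB2, an isoform that needs a co-receptor for high-affinity binding, had few reads. Its libraries held 26, 20 and 13 reads with siADNP and 23, 25 and 14 reads with siControl, and its log2 fold change of 0.12 ± 0.29 did not pass (adjusted p = 0.801). TGFB3, the remaining isoform, had 1.28, 1.36 and 2.17 CPM with siADNP and 2.24, 2.66 and 2.89 CPM with siControl. The groups did not overlap, but the siADNP library of replicate 3 nearly reached the lowest siControl library, and the log2 fold change of -0.70 ± 0.31 missed the threshold (adjusted p = 0.0808). Without siADNP replicate 3 it was -0.96 with an adjusted p of 0.0450. TGFB1 was therefore the only one of the isoforms to pass the test in all libraries together, and its siADNP value rests on 1762 reads in all, against 59 for TGFB2 and 38 for TGFB3.

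TGFB1, BMP7 and GDF11 had the largest rises of the 47 genes, and no promoter window was available for BMP7. The windows of TGFB1 and GDF11 are shown for this reason and because both are dense in a short motif. Each runs from 250 bases before to 50 bases after the gene start in RefSeq (GRCh38.p14), written 5′ to 3′ on the gene's strand. Capitals mark GGGCGG, the core of the GC box bound by SP1-family factors, read on either strand, and the TATA-box letters TATAAA. The TGFB1 window (chr19:41353873-41354172, minus strand) holds 7 copies of GGGCGG, and the GDF11 window (chr12:55742872-55743171, plus strand) holds 9, some of which overlap each other, and 1 TATAAA.
TGFB1: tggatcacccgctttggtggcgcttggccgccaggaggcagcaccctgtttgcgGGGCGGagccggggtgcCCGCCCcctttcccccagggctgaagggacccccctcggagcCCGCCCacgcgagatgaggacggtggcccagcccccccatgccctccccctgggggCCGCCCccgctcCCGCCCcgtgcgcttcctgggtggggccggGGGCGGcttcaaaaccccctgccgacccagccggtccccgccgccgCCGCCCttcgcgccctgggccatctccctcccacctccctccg
GDF11: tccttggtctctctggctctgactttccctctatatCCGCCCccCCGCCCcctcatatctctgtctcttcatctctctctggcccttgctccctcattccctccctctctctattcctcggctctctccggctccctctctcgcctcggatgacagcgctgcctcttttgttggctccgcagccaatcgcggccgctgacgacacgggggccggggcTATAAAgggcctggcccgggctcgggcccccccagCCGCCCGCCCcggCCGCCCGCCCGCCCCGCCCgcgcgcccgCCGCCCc
GGGCGG occurs in 45.0% of all 35116 promoter windows of this length in the RefSeq table. It was present in 28 of the 42 windows available for pathway genes. These windows had a median GC content of 70%, against 58.7% for all windows. The set of all windows was not limited to tested genes, so it is unlike the set of pathway windows. By call, GGGCGG was present in 7 of the 9 windows available for genes that were higher with siADNP. It was also in 2 of the 3 for lower genes and in 15 of the 22 for genes that did not pass, so the motif was not restricted to genes that rose. The windows of ACVR2B, BAMBI and SMAD3, which did not pass, held 5 copies each, fewer than those of TGFB1 and GDF11. The SMAD palindrome GTCTAGAC is in 0.202% of all windows and in the window of SMAD6 alone among the 42 pathway genes that were matched. The BMP-responsive GC-rich element GGCGCC is in 19.2% of all windows and 15 of the 42, and the SMAD-binding element CAGAC in 45.3% and 22 of the 42. Neither GTCTAGAC, GGCGCC nor CAGAC occurs in the TGFB1 and GDF11 windows on either strand, and sequence outside the windows was not examined.

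Among the BMP, GDF and activin ligands, BMP7 and GDF11 rose and BMP4 and BMP2 did not pass. BMP7, a ligand of kidney and skeletal development, had 9.38, 8.95 and 10.8 CPM with siADNP and 4.82, 4.33 and 6.27 CPM with siControl. All siADNP libraries were above all siControl libraries, and the log2 fold change was 0.93 ± 0.17 (SE; edgeR, adjusted p = 7.72e-05), a 1.90-fold difference. GDF11, a relative of myostatin that patterns the body axis, had 10.9, 9.63 and 7.73 CPM with siADNP and 5.16, 4.72 and 5.18 CPM with siControl. Its siADNP libraries were more scattered than its siControl libraries but did not reach them, and its log2 fold change of 0.92 ± 0.17 (adjusted p = 9.15e-05) was of the same order as that of BMP7. GDF11 overlaps SARNP in the RefSeq annotation, and no source used here says whether counting used strand, so reads of the pair may not be fully separated. SARNP itself had a log2 fold change of -0.09 (adjusted p = 0.204). BMP4, the ligand of the 47 genes with the most reads, had 102, 104 and 111 CPM with siADNP and 95.4, 97.8 and 106 CPM with siControl. These ranges overlapped, and its log2 fold change of 0.09 ± 0.06 did not pass (adjusted p = 0.282). BMP2 held 7 to 11 reads per siADNP library and 10 to 14 per siControl library, too few for more than a wide estimate (log2 fold change -0.24 ± 0.39).

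Of the LTBP genes, named for latent TGF-beta binding proteins, LTBP4 rose. It had 67.6, 67.2 and 74.8 CPM with siADNP and 47.0, 51.8 and 50.8 CPM with siControl. The groups were clearly apart, with a log2 fold change of 0.48 ± 0.07 (SE; edgeR, adjusted p = 9.30e-07), a 1.40-fold difference. LTBP3, also well covered, had means of 55.3 ± 3.79 CPM with siADNP and 52.0 ± 3.14 CPM with siControl (SD, n = 3 each). Its log2 fold change of 0.09 ± 0.07 did not pass, as was the case for LTBP1 (0.20 ± 0.13) and LTBP2 (0.13 ± 0.21).

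**Figure D2:**
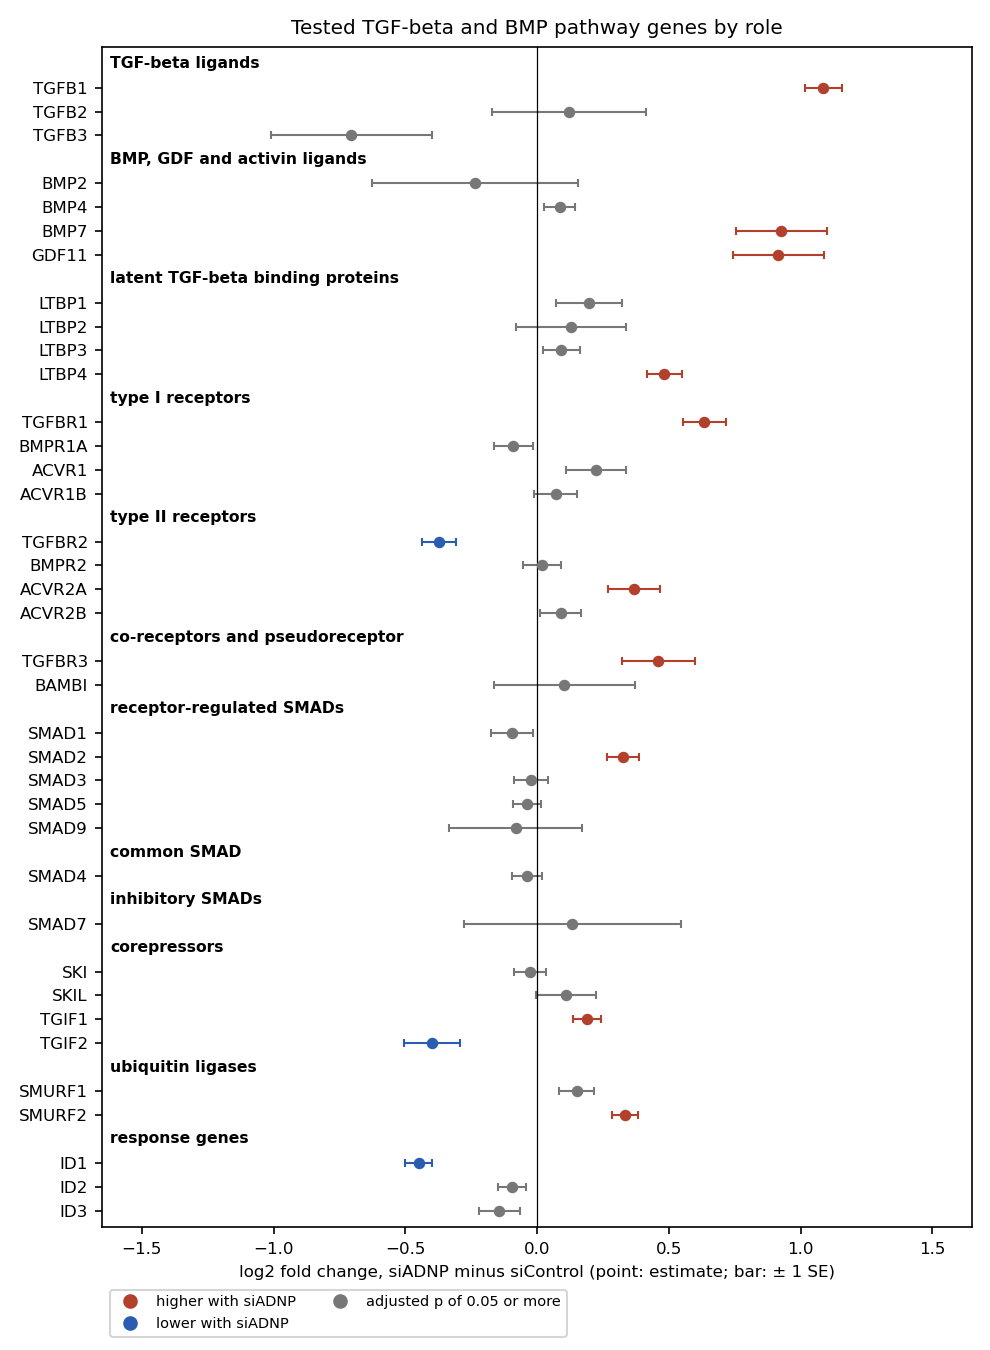
Log2 fold change, siADNP minus siControl (horizontal axis), of the 37 tested pathway genes grouped by role; points are edgeR estimates, bars ± 1 SE, red marks genes that passed as higher, blue those that passed as lower, and grey those that did not pass. TGFB1 lies farthest to the right at 1.09, and TGFBR1 (0.63) and TGFBR2 (-0.37) lie on opposite sides of 0.

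The receptor pair for TGF-beta moved in opposite directions. TGFBR1, the type I kinase that phosphorylates SMAD2 and SMAD3, had 51.9, 58.0 and 50.03 CPM with siADNP and 30.7, 37.9 and 34.4 CPM with siControl. No siControl library came near the siADNP range, and the log2 fold change was 0.63 ± 0.08 (SE; edgeR, adjusted p = 1.29e-07), a 1.55-fold difference. TGFBR2, the type II receptor that binds the ligand, had 62.4, 58.7 and 64.1 CPM with siADNP and 78.8, 77.4 and 83.4 CPM with siControl. Here every siADNP library was below every siControl library. The transcript stood at 77.3% of its siControl level, and its log2 fold change was -0.37 ± 0.06 (edgeR, adjusted p = 2.22e-05). RefSeq lists a pseudogene named after TGFBR1. Reads without a unique place were counted apart, so TGFBR1 may have lost some reads, and others may be misplaced.

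The other type I receptors did not pass. ACVR1, which serves BMP and activin ligands, had 17.6, 18.2 and 18.0 CPM with siADNP and 16.0, 16.3 and 13.6 CPM with siControl. The groups did not overlap, but the log2 fold change of 0.22 ± 0.11 missed the threshold (edgeR, adjusted p = 0.141). BMPR1A, a main BMP receptor, and ACVR1B, the activin receptor ALK4, had log2 fold changes of -0.09 ± 0.07 and 0.07 ± 0.08, with overlapping groups. BMPR1A has 2 pseudogenes named after it in RefSeq.

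Among the type II receptors of the BMP and activin branch, ACVR2A rose. It had 23.9, 30.1 and 28.5 CPM with siADNP and 22.3, 21.1 and 20.6 CPM with siControl. Its lowest siADNP library lay close above the highest siControl library, and the log2 fold change was 0.37 ± 0.10 (SE; edgeR, adjusted p = 0.00452). ACVR2A overlaps ORC4 in RefSeq, and ORC4 had a log2 fold change of -0.10 (adjusted p = 0.260). The paralogue ACVR2B and the BMP receptor BMPR2 did not pass, with log2 fold changes of 0.09 ± 0.08 and 0.02 ± 0.07. Of the co-receptors, TGFBR3, or betaglycan, which presents TGFB2 to the signalling receptors, had 13.2, 16.2 and 20.5 CPM with siADNP and 11.0, 11.0 and 14.3 CPM with siControl. The groups overlapped. The log2 fold change of 0.46 ± 0.14 passed (adjusted p = 0.0112), but it did not pass without siADNP replicate 3 (0.30, adjusted p = 0.140), without siControl replicate 1 (adjusted p = 0.0625), without siControl replicate 2 (adjusted p = 0.0627) or in DESeq2's Wald test (adjusted p = 0.0686). BAMBI, a pseudoreceptor without a kinase domain, had 15 to 34 reads per siADNP library and 18 to 38 per siControl library and did not pass (log2 fold change 0.10 ± 0.27).

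SMAD2 was the single SMAD gene that passed. It had 115, 135 and 122 CPM with siADNP and 99.2, 94.5 and 104 CPM with siControl. All siADNP libraries lay above all siControl libraries, with a log2 fold change of 0.33 ± 0.06 (SE; edgeR, adjusted p = 6.20e-05), a 1.25-fold difference. SMAD3, which acts beside SMAD2, had means of 76.0 ± 6.10 CPM with siADNP and 77.6 ± 4.28 CPM with siControl (SD, n = 3 each), and its log2 fold change was -0.02 ± 0.07. The BMP-branch genes SMAD1 and SMAD5 had log2 fold changes of -0.10 ± 0.08 and -0.04 ± 0.05, and SMAD4 had -0.04 ± 0.06. The groups of these genes overlapped, and with the standard errors multiplied by 1.96 their intervals ran from -0.25 to 0.06 for SMAD1, from -0.14 to 0.07 for SMAD5 and from -0.15 to 0.07 for SMAD4. SMAD9, the least covered BMP-branch SMAD, and the feedback inhibitor SMAD7 were too weakly measured for narrow estimates. Their log2 fold changes were -0.08 ± 0.25 and 0.13 ± 0.41, and SMAD7 had 6 to 11 reads per siADNP library and 8 to 12 per siControl library.

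The homeodomain corepressors TGIF1 and TGIF2, which bind SMAD complexes at target genes, went opposite ways. TGIF1 had 147, 149 and 153 CPM with siADNP and 129, 137 and 127 CPM with siControl. The groups did not overlap, although the difference was small, with a log2 fold change of 0.19 ± 0.05 (SE; edgeR, adjusted p = 0.00583). TGIF2 had 16.6, 18.3 and 16.1 CPM with siADNP and 21.4, 21.5 and 24.7 CPM with siControl. Its siADNP libraries were all below its siControl libraries, and it stood at 75.9% of the siControl level (log2 fold change -0.40 ± 0.11, adjusted p = 0.00425). Each gene has a pseudogene named after it in RefSeq. SKI and SKIL, corepressors that bind SMAD3 and SMAD4, did not pass, with log2 fold changes of -0.03 ± 0.06 and 0.11 ± 0.11.

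SMURF2, a ubiquitin ligase that targets SMADs and TGF-beta receptors, had 228, 248 and 243 CPM with siADNP and 184, 193 and 194 CPM with siControl. It was higher in every siADNP library, with a log2 fold change of 0.33 ± 0.05 (SE; edgeR, adjusted p = 3.12e-06). A pseudogene named after it is listed in RefSeq. Its paralogue SMURF1 had 61.0, 65.1 and 60.9 CPM with siADNP and 59.9, 54.7 and 54.3 CPM with siControl. These groups were also apart, but by a narrow margin, and the log2 fold change of 0.15 ± 0.07 missed the threshold (adjusted p = 0.0904).

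Of the response genes, ID1 fell. The ID genes encode inhibitors of basic helix-loop-helix transcription factors and are classical BMP targets. ID1 had 172, 187 and 195 CPM with siADNP and 245, 261 and 250.3 CPM with siControl. The highest siADNP library was far below the lowest siControl library, the means were 185 ± 11.8 CPM with siADNP and 252 ± 8.24 CPM with siControl (SD, n = 3 each), and the log2 fold change was -0.45 ± 0.05 (SE; edgeR, adjusted p = 1.94e-08). ID2 had 112, 109.7 and 111 CPM with siADNP and 119.7, 121 and 114 CPM with siControl. The siADNP libraries lay just below the siControl libraries, and the log2 fold change of -0.09 ± 0.05 did not pass (adjusted p = 0.195). ID3 had 39.7, 36.2 and 37.8 CPM with siADNP and 38.5, 44.9 and 42.0 CPM with siControl. These groups overlapped, and its log2 fold change of -0.14 ± 0.08 did not pass either (adjusted p = 0.175). With the GC offset both passed, ID2 at -0.16 (adjusted p = 0.0241) and ID3 at -0.25 (adjusted p = 0.0143), and ID1 stood at -0.57. The window around the start of ID1 (RefSeq, GRCh38.p14, chr20:31605039-31605338, plus strand) is given for comparison with those of the ligands that rose, with the same motifs in capitals.
ID1: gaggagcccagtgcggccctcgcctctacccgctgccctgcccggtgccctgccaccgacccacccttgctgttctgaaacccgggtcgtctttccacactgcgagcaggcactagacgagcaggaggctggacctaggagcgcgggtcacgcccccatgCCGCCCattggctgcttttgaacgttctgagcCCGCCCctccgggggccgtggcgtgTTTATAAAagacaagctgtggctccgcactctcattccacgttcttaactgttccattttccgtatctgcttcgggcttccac
It holds 2 copies of GGGCGG and a TATA-box stretch that reads TATAAA on both strands in overlapping positions. GTCTAGAC, GGCGCC and CAGAC do not occur in this window on either strand. Sequence outside the window was not examined, so sites farther from the start of ID1 would not be seen.

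The remaining 10 genes had too few reads to test. INHBA, which encodes the activin A subunit, had 0 reads in all libraries, which allows up to 0.125 CPM in the siADNP group and up to 0.109 CPM in the siControl group, counting error only. The secreted antagonists GREM1 and LEFTY1 had 1 and 0 reads in all with siADNP, against 4 and 1 with siControl. TGFBI and PMEPA1, response genes that TGF-beta induces strongly in many cell types, had 1 and 5 reads with siADNP, against 0 and 9 with siControl. ID4 had 2, 4 and 2 reads with siADNP and 4, 15 and 5 with siControl, and 1 siControl library carried most of them. INHBE had 5 reads with siADNP and 0 with siControl, and BMPR1B had 2 with siADNP and 1 with siControl. The co-receptor ENG had 7 reads with siADNP and 4 with siControl, and the inhibitory SMAD6 had 23 with siADNP and 28 with siControl. In the fit with no filter on low counts, none of the 9 genes with at least 1 read passed, and the smallest adjusted p among them was 0.133, for INHBE.

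The 24 tested genes that did not pass had log2 fold changes between -0.70 and 0.22. For the 14 of them with a standard error under 0.1, intervals of 1.96 standard errors to either side lay between -0.30 and 0.28, so larger changes of these genes lie outside the intervals. The other genes, including TGFB2, BMP2, SMAD9, SMAD7 and BAMBI, were measured less precisely, with standard errors up to 0.41.

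The GC content of the transcripts moved with the direction of change over all genes. The median was 54.0% for all genes called higher, 43.0% for all genes called lower and 48.6% for those not called. The pathway genes did not show this order, with medians of 42.5% for the 10 higher genes, 52.0% for the 3 lower genes and 50.7% for the 24 that did not pass. TGFB1, LTBP4 and BMP7 were GC-rich, at 63.5%, 66.7% and 56.4%, and their log2 fold changes with the GC offset were 0.93, 0.31 and 0.83. SMAD2, SMURF2, TGFBR1 and ACVR2A had 40.2%, 39.3%, 39.0% and 38.7% GC, and with the offset their log2 fold changes were 0.39, 0.40, 0.71 and 0.44. All 13 called genes also passed with the GC offset, and SKI, ID2 and ID3 passed in addition, each lower.

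**Figure D3:**
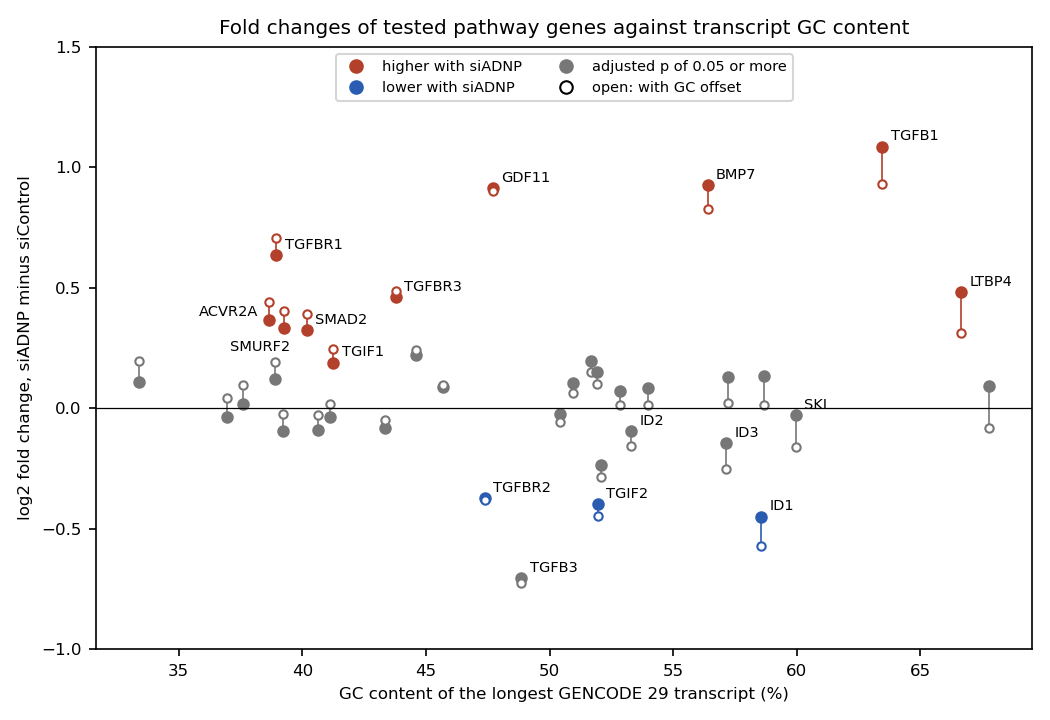
Log2 fold change, siADNP minus siControl (vertical axis), of the 37 tested pathway genes against the GC content of the longest transcript in percent (horizontal axis); filled points are the values without and open points with the GC offset, joined by a line for each gene. Values of GC-rich genes such as TGFB1 (1.09 and 0.93) and LTBP4 (0.48 and 0.31) are lower with the offset, and those of GC-poor genes such as TGFBR1 (0.63 and 0.71) are higher.

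Further genes of the pathway, from a list of 93 that does not include the 47, were read from the same fit. This list was chosen with earlier results of these data known, so its shares only describe the listed genes. Of 54 that could be tested, 11 were higher, 11 lower and 32 did not pass, which is 20.4% in each direction, against 14.6% higher and 13.7% lower over all tested genes. Among ligands, BMP8A and BMP8B rose with log2 fold changes of 0.92 ± 0.21 and 0.52 ± 0.13 (SE; edgeR, adjusted p = 0.00111 and 0.00225). These paralogues are nearly identical. Reads without a unique place were counted apart, so either gene may have lost reads, and others may be misplaced. BMP6 rose with 0.71 from few reads, 89 in all with siADNP and 62 with siControl. This call was lost under the GC offset (0.63, adjusted p = 0.0634) and in DESeq2's Wald test (adjusted p = 0.166). GDF15, a stress-induced distant family member, fell with -0.32 but did not pass in DESeq2's Wald test (adjusted p = 0.368). ACVR1C, the nodal receptor ALK7, rose with 0.92 ± 0.22 from few reads (5.79 ± 0.851 CPM with siADNP and 3.12 ± 0.698 CPM with siControl; SD, n = 3 each; adjusted p = 0.00151). The chordin-cleaving proteases BMP1 and TLL1 rose with 0.22 and 1.12. TLL1 had few reads, 71 in all with siADNP and 37 with siControl, and a standard error of 0.33. BMP1 stood at 0.080 with the GC offset (adjusted p = 0.524) and also missed the threshold with DESeq2 size factors, with no filter and with a filter at 1 CPM (adjusted p = 0.0509, 0.0692 and 0.0503), and neither gene passed in DESeq2's Wald test (adjusted p = 0.188 and 0.0736).

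Of the proteins that release active TGF-beta from its latent complex, THBS1, or thrombospondin 1, rose and ITGB8, an integrin chain that binds latent TGF-beta, fell. THBS1 had 17.2, 18.0 and 14.9 CPM with siADNP and 9.19, 13.3 and 11.2 CPM with siControl, and ITGB8 had 6.29, 6.68 and 6.37 CPM with siADNP and 10.9, 11.0 and 12.3 CPM with siControl. Neither gene's groups overlapped, and the log2 fold changes were 0.57 ± 0.13 and -0.81 ± 0.15 (SE; edgeR, adjusted p = 0.00109 and 7.30e-05). ZFYVE9, or SARA, the endosomal anchor that brings SMAD2 to the receptor, rose and was well covered, with 71.0, 68.2 and 69.5 CPM with siADNP and 47.0, 49.8 and 47.6 CPM with siControl. Its log2 fold change was 0.53 ± 0.07 (adjusted p = 8.08e-08). The deubiquitinase USP15 and the coactivator CREBBP rose with 0.26 and 0.19, and NEDD4L, a ubiquitin ligase for SMAD2 and SMAD3, E2F4, a partner of repressive SMAD complexes, TRAF6 and XIAP fell with -0.29, -0.32, -0.27 and -0.25. CREBBP stood at 0.098 with the GC offset and did not pass (adjusted p = 0.178), and TRAF6 did not pass in DESeq2's Wald test (adjusted p = 0.0637).

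Of the 12 other response genes tested, MSX1, a homeobox BMP target, rose with a log2 fold change of 0.81 ± 0.09 (SE; edgeR, adjusted p = 6.10e-09). Of the same 12 genes, 5 fell (41.7%, where 13.7% of all tested genes were lower). The list was chosen with earlier results of these data known, so this share only describes the listed genes. CDKN1A and CDKN2B, the cell cycle inhibitors p21 and p15, fell with -1.09 ± 0.06 (adjusted p = 1.36e-16) and -0.63 ± 0.13 (adjusted p = 0.000333). KLF10, an early TGF-beta response gene, fell with -0.36 ± 0.06 (adjusted p = 3.18e-05). JUNB and MSX2 fell with -0.21 and -0.38. Most fits without 1 library lost both calls, as did DESeq2's Wald test (adjusted p = 0.165 and 0.156). CDKN1A is also known as a target of p53. CTGF, a matricellular protein gene often used as a TGF-beta target, did not pass, with 41 reads in all with siADNP and 24 with siControl (edgeR, adjusted p = 0.0696).

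Several of these calls were lost when 1 library was left out. BMP6 did not pass without siADNP replicate 2 or 3 or without any 1 of the siControl libraries (adjusted p of 0.0690 to 0.125), GDF15 without siADNP replicate 1 or siControl replicate 2 (0.0679 and 0.316), and TLL1 without siADNP replicate 2 or siControl replicate 1 (0.195 and 0.0581). The log2 fold change of GDF15 was -0.11 without siControl replicate 2 and that of TLL1 was 0.68 without siADNP replicate 2, while that of BMP6 stayed between 0.60 and 0.75 in the fits that lost it. BMP1, at an adjusted p of 0.0486, was lost without any 1 library other than siControl replicate 2 (0.0558 to 0.217). JUNB and MSX2, at 0.0414 and 0.0335, were lost without any 1 library other than siControl replicate 1 (0.0785 to 0.257 and 0.0576 to 0.155). The log2 fold change of JUNB was -0.14 without siControl replicate 2 and -0.21 in the other fits without 1 library that lost it. JUNB also missed the threshold with upper-quartile scaling (-0.19, edgeR adjusted p = 0.0754) and with library totals (-0.20, edgeR adjusted p = 0.0592). CREBBP was lost without siADNP replicate 1 or siControl replicate 2 (0.0836 and 0.0525) and TRAF6 without siADNP replicate 1 (0.0833). The count of lower genes on this list was 7 without siADNP replicate 1.

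**Figure D4:**
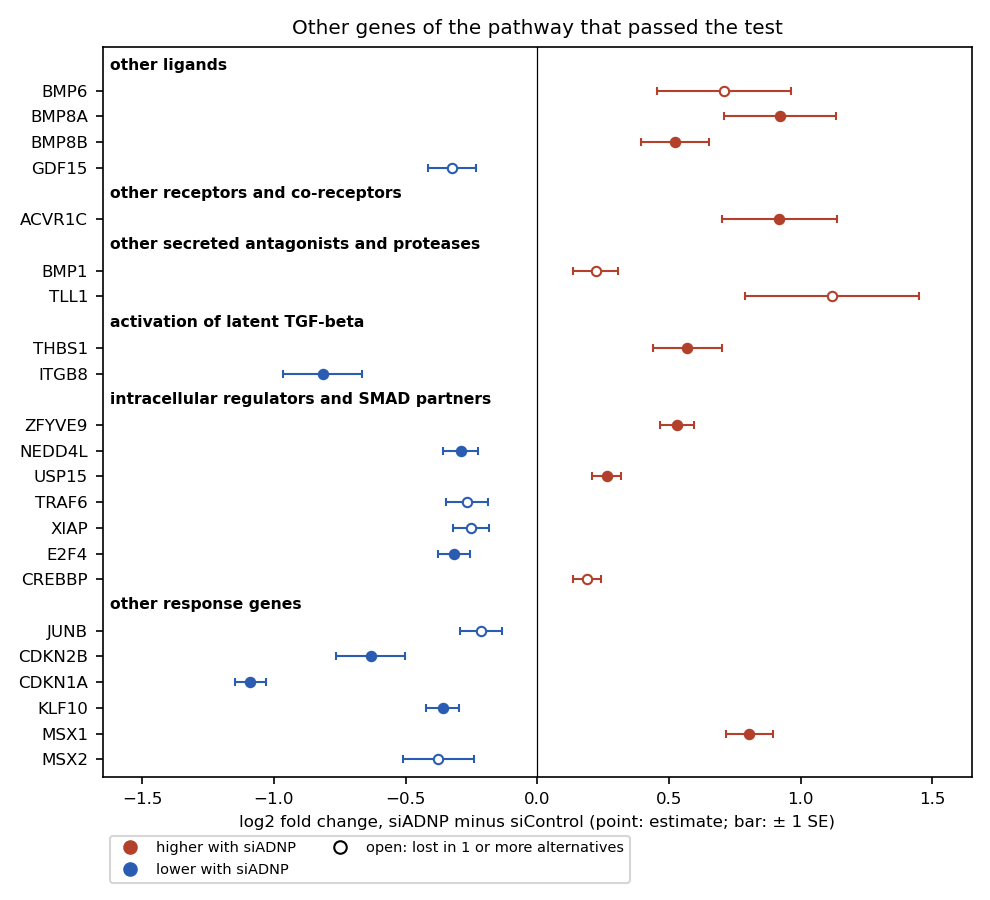
Log2 fold change, siADNP minus siControl (horizontal axis), of the 22 further pathway genes that passed the test, grouped by role; points are edgeR estimates, bars ± 1 SE, red higher and blue lower with siADNP, and open points mark the 9 genes that did not pass in at least 1 alternative analysis. The lowest value is that of CDKN1A at -1.09 and the highest that of TLL1 at 1.12.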

How the data were processed

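RNA of 6 libraries was extracted with Trizol, DNase-treated and converted with a Nugen kit, per the labels' protocols. The deposited counts are reads per gene symbol with no normalization. STAR, HTSeq, DESeq2 and hg19 are named, without versions, in the submitters' processing notes, and annotation and strand setting were not given in the sources used here. The deposited log2 values match a variance-stabilizing transformation recomputed from the counts (largest difference 0.0148) and served only in an alternative test. The 5 lines for reads outside genes or without a unique place were not used. Reads assigned to genes were 26.4% to 27.2% of the siADNP libraries and 27.7% to 28.3% of the siControl libraries, so these shares did not overlap between groups.

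The test was edgeR 4.0.16 (R 4.3.3) with TMM, filterByExpr at a minimum count of 10 and the quasi-likelihood F-test for siADNP over siControl, adjusted by Benjamini-Hochberg over all 12489 tested genes, with a threshold of 0.05. The standard error is the log2 fold change divided by the root of F. The code was tested on simulated data. Alternatives were DESeq2 1.42.0, limma 3.58.1, other scalings and filters, a GC offset (spline with 5 degrees of freedom), a replicate block and leaving out each library. GC content came from the longest GENCODE 29 transcript, available for 97.0% of tested genes, and promoter windows from RefSeq, with 42 of 47 genes matched by symbol. Libraries of a group differed beyond sampling noise (chi-square divided by its degrees of freedom 1.77 to 2.94).

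The 47 genes and the list of further pathway genes were chosen with earlier results of these data known. The text names ADNP, each of the 47 genes, and those further pathway genes that passed the test; CTGF was named after its values were seen.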

Additional observations from a re-analysis of the deposited data

How the results depend on the processing

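Of the 13 pathway genes called, 12 passed with the same direction in all 16 alternatives, and TGFBR3 is the exception. The count of pathway genes called was 9 to 10 higher and 3 to 4 lower when single libraries were left out. With the GC offset 6 were lower, and 5 when the block on replicate number was added to it, against 3 without either. Over all genes DESeq2's Wald test called 1106 higher and 1079 lower genes, against 1824 and 1714. Of the further pathway genes DESeq2 called 7 lower, and leaving out single libraries gave 7 to 12, against 11. SKI passed with the GC offset (-0.16, adjusted p = 0.0435) and SMURF1 with upper-quartile scaling (0.17, adjusted p = 0.0461), and XIAP did not pass with offset and block together (adjusted p = 0.0574).

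Some genes that did not pass changed sign. With the GC offset, alone and with the block, LTBP3 stood at -0.082 and -0.083, SMAD5 at 0.044 and 0.046 and SMAD4 at 0.018 and 0.018, and with upper-quartile scaling SMAD3 at 0.00023. Leaving out single libraries gave ranges of -0.15 to 0.30 for TGFB2, -0.0043 to 0.30 for LTBP2, -0.059 to 0.11 for BMPR2, -0.088 to 0.36 for BAMBI, -0.077 to 0.0404 for SMAD3, -0.067 to 0.021 for SMAD5, -0.41 to 0.27 for SMAD9, -0.046 to 0.42 for SMAD7 and -0.062 to 0.039 for SKI. The causes were not tested.

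Both groups number their libraries 1 to 3, but nothing in the labels pairs them, and deviations of same-numbered libraries from their group means correlated with r of 0.05, -0.07 and -0.04 across 10658 genes. Not every library correlated best with its own number. With the replicate block 1694 genes were higher and 1542 lower, and of the pathway genes again 10 and 3, while BMP1 and JUNB did not pass (adjusted p = 0.0564 and 0.0534). Depth limits the weakly expressed genes: BMP2, TGFB2, SMAD7 and BAMBI had at most 38 reads in any library, and 10 genes could not be tested.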
